A study of Mus musculus with 30 samples.

Results

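The Ly49 receptors, encoded by the Klra genes, were followed across 30 mouse RNA-seq libraries of tumour-infiltrating cells. The members were the 10 rows with the symbols Klra1 to Klra9 and Klra17, of 55291 gene symbols in the table. Ly49 proteins are lectin-like receptors that natural killer (NK) cells and some T cells carry on their surface, where most of them bind classical MHC class I molecules. Inhibitory members recruit the phosphatase SHP-1 through a tyrosine motif in their tail, and activating members signal through the adaptor DAP12. The number and kind of Ly49 genes differ between inbred mouse strains, and BALB/c mice are known to lack the activating receptors Ly49D and Ly49H of C57BL/6 mice.

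The libraries came from 10 subcutaneously grown tumour lines with 3 replicates each, and are labelled as CD45+ immune cells. Of C57BL/6 origin were the colon line MC38 and its derivative MC38OVA, named for ovalbumin, the Lewis lung line LL2, and the melanoma sublines B16F1 and B16F10. Of BALB/c origin were the mammary line EMT6, the colon line CT26 and its derivative CT26NYESO1, named for the tumour antigen NY-ESO-1, the fibrosarcoma CMS5a and the kidney line Renca. The stated purpose was to find cancers in which OK-432, made from killed streptococci, could be used. The labels name BALB/cJ and C57BL/6J hosts and a 24 hour intratumoural exposure given to some mice, but tie neither strain nor exposure to a library, and host age is not given. Origin is therefore that of the tumour line and exposure was not used as a group. Whether replicates were separate mice is not stated, so p-values from fits of the libraries measure only the spread between these samples, which may be technical. P-values with the line as the unit measure the spread between tumour lines, some of which are related.

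H2-Ea, an MHC class II gene that C57BL/6 mice do not express, served as a check of strain. It was listed at 0 in all 15 libraries of C57BL/6-origin lines, against 21.2 to 472 TPM (the unit of the deposited table, a share of all transcripts that corrects for transcript length) in the 15 libraries of BALB/c-origin lines. Strain by this gene thus followed the origin of the line in every library. Whether host or tumour cells carried it was not tested. Ptprc, the gene for CD45, lay between 2.7 and 215 TPM in libraries of C57BL/6-origin lines and between 9.28 and 69.2 TPM in those of BALB/c-origin lines. B16F1 and B16F10 libraries had the lowest Ptprc line means, 10.1 and 5.39 TPM, and their melanocyte gene Tyrp1 stood at 168 and 3750 TPM, so tumour cell transcripts were present. Other lines were not free of non-leukocyte transcripts. The mean log2(TPM + 1) of 6 tumour cell genes was 5.19 in LL2 and 5.85 in Renca, with EMT6 between them, against 4.52 in B16F1. It was lower than in B16F1 in MC38, MC38OVA, CT26, CT26NYESO1 and CMS5a. The list holds melanocyte, keratin and collagen genes only, so a low score does not show that tumour cell transcripts were few. Of these genes, the collagen gene Col3a1 stood at 2317 TPM in LL2 and 2566 TPM in CMS5a. Shisal2b, outside this list and named after its values were seen, stood at 395 to 624 TPM in MC38 and MC38OVA libraries. It was at or below 0.394 TPM in all other libraries. Which cells carried Col3a1 or Shisal2b was not tested. TPM keep no read counts, so sequencing depth is unknown and a level of 0 has no upper limit. In such bulk samples, fewer cells of a type and less RNA per cell cannot be told apart.

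All 10 members lie on the minus strand of mouse chromosome 6 (mm10, GENCODE M21). Klra17 to Klra1 fill the interval from 129831154 to 130386874, a span of 555.7 kb, and Klra2 lies apart at 131219223 to 131247362. The start regions of 4 members are shown because they form the 2 most similar pairs, and because Klra9, unlike Klra3, was near 0 in BALB/c-origin lines. Each is a RefSeq promoter of build GRCm38.p6, minus strand, from 250 bases before to 50 bases after the start, and capitals mark TATAAA or its reverse complement TTTATA, which Klra4 lacks in this window.
Klra4, chr6:130067222-130067521: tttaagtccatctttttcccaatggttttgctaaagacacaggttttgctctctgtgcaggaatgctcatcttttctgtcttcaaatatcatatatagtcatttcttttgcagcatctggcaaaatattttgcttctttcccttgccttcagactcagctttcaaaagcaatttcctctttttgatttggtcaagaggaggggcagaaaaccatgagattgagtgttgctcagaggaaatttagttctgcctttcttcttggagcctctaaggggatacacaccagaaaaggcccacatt
Klra8, chr6:130129849-130130148: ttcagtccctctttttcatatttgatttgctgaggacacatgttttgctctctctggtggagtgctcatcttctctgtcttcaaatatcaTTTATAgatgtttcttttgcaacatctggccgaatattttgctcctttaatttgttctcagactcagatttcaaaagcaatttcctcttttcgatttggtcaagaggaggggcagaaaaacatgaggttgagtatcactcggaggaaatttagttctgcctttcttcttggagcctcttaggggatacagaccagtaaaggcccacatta
Klra3, chr6:130337577-130337876: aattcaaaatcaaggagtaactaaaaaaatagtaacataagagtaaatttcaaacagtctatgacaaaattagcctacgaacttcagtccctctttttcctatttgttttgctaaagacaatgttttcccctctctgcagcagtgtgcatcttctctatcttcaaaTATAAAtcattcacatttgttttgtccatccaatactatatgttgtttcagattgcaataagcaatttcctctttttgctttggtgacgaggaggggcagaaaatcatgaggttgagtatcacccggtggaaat
Klra9, chr6:130193063-130193362: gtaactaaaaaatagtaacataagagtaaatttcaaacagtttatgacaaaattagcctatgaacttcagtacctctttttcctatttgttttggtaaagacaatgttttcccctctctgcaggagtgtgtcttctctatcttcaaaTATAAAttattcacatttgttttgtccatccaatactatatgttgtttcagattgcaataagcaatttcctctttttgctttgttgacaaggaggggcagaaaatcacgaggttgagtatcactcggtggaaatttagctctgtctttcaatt
Klra4 and Klra8, the activating members, were 86.0% identical over these bases, and Klra3 and Klra9, both inhibitory, were 85.0% identical. The other 43 pairs of members were between 42.9% and 79.3% identical. TATAAA on either strand was found in the promoters of 5 of 10 members (Klra3, Klra5, Klra6, Klra8 and Klra9), and in 13.6% of 32851 mouse promoters of the same length. The Runx motif TGTGGT was found in Klra1 alone (16.8% of all promoters), the TCF/LEF motif CTTTGA in Klra6 and Klra7 (16%), and the T-box motif GGTGTGA in Klra1 alone (3.98%). Each was searched on both strands, and no motif contains another. These sequences are those of C57BL/6J, the strain of the mm10 genome, and say nothing of the BALB/c alleles.

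The transcripts of most members could be told apart in the annotation. Of the 75-base stretches in a member's GENCODE transcripts, none occurred in another Klra gene for Klra2, Klra5, Klra6 and Klra17. The share was 0.237% for Klra1, 0.342% for Klra4, 5.71% for Klra7 and 6.39% for Klra3. Klra9 shared 12.1%. Klra8 shared 19.7%, mostly with the pseudogene Klra14-ps. Read length is not stated, so how reads were divided among similar members is uncertain.

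The 2 activating members were read almost only in libraries of C57BL/6-origin lines. Klra4 encodes Ly49D, a DAP12-coupled activating receptor. It stood at 40.1, 34.8 and 32.9 TPM in MC38 replicates 1 to 3, at 34.9, 38.4 and 30.9 TPM in MC38OVA, and at 3.34, 4.42 and 3.49 TPM in LL2. B16F1 libraries had 0, 0.486 and 0.394 TPM and B16F10 libraries 0.0992, 0.0902 and 0.216 TPM. Among the 15 BALB/c-origin libraries, 14 were listed at 0 and CT26 replicate 3 had 0.207 TPM. The lowest libraries of the C57BL/6-origin lines therefore overlapped the highest of the BALB/c-origin lines, while the line means did not overlap. Reads were mapped to the C57BL/6J genome, so an absent gene, a differing allele and a lack of transcript cannot be told apart in BALB/c-origin libraries.

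Klra8 encodes Ly49H, the activating receptor that recognises the cytomegalovirus protein m157. It had 6.93, 4.40 and 7.08 TPM in MC38, 5.73, 15.3 and 7.78 TPM in MC38OVA, and 1.06, 2.06 and 1.28 TPM in LL2. B16F1 libraries had 0.237, 0.915 and 0.529 TPM, and B16F10 libraries 0, 0.260 and 0.399 TPM. In BALB/c-origin lines it was listed at 0 in 13 of 15 libraries, with 0.0615 TPM in CT26 replicate 1 and 0.0362 TPM in CMS5a replicate 3. Of the C57BL/6-origin libraries, B16F10 replicate 1, listed at 0, was the only one within the BALB/c-origin range.

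**Figure D1:**
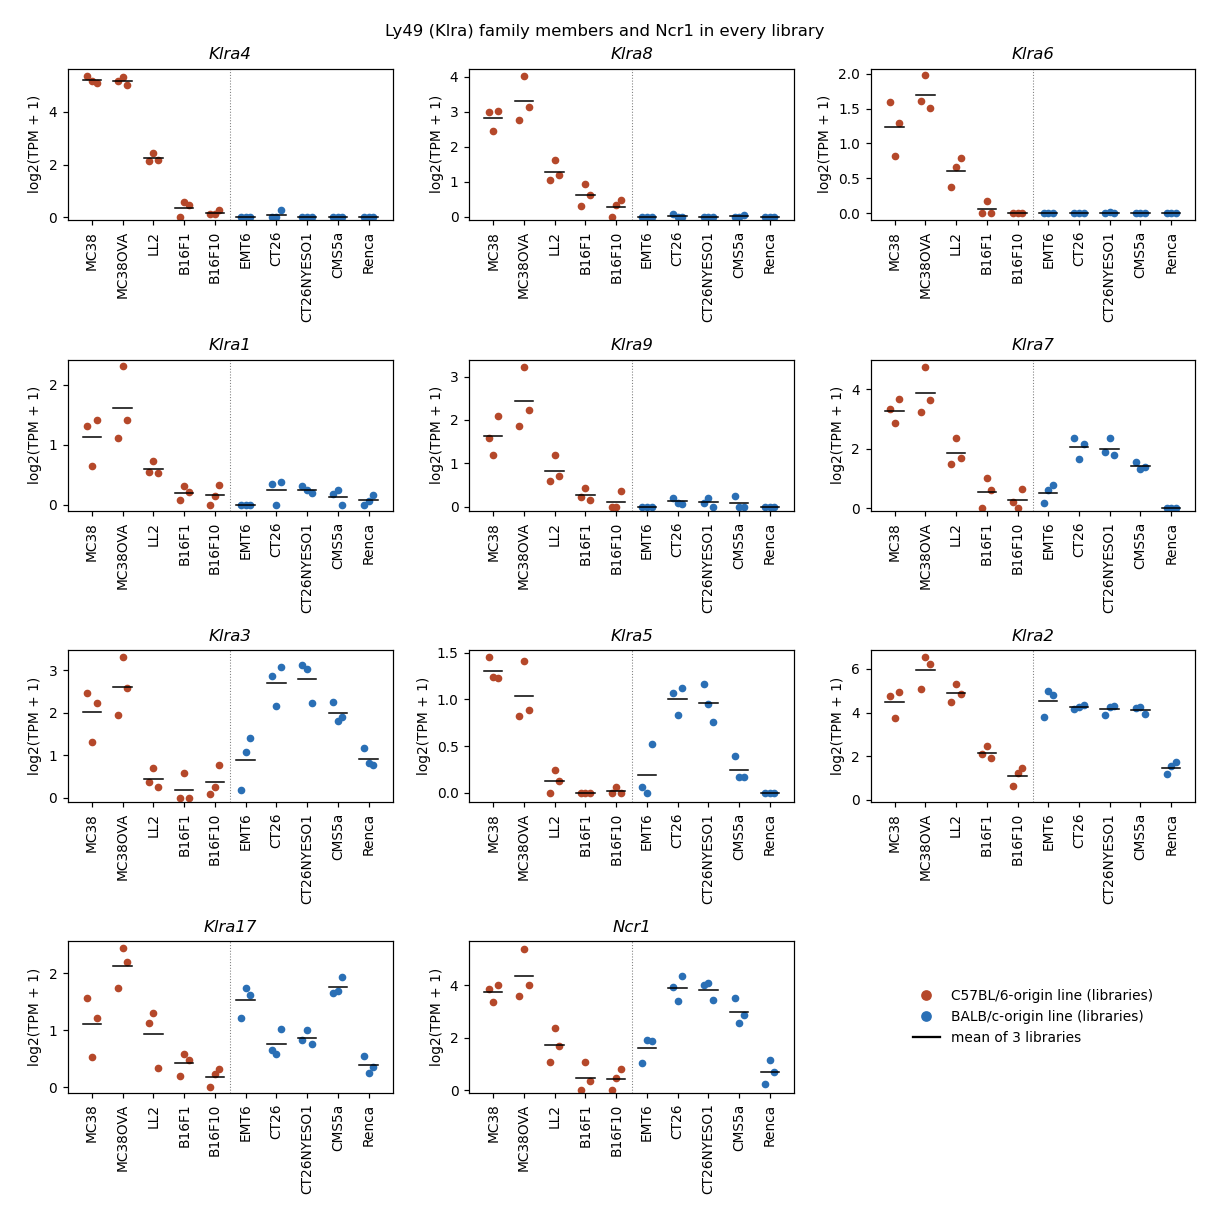
Level of each Ly49 member and of Ncr1 in all 30 libraries, as log2(TPM + 1), with the 5 C57BL/6-origin lines left of the dotted line and the 5 BALB/c-origin lines right of it; points are libraries and bars the mean of 3. Klra4, Klra8, Klra6, Klra1 and Klra9 reach 1 TPM (a value of 1 on this axis) only on the left, while Klra7, Klra3, Klra5, Klra2, Klra17 and Ncr1 reach it on either side.

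The inhibitory members Klra6, Klra9 and Klra1 were below 1 TPM in every BALB/c-origin library, at levels that ranged from almost all at 0 (Klra6) to mostly above 0 (Klra1). Klra6, which encodes Ly49F, had 2.03, 0.768 and 1.44 TPM in MC38, 2.05, 2.93 and 1.84 TPM in MC38OVA, and 0.297, 0.575 and 0.728 TPM in LL2. It was listed at 0 in 12 of 15 BALB/c-origin libraries and at most 0.00879 TPM in the other 3. Klra9, which encodes Ly49I, ranged from 0 to 8.40 TPM in C57BL/6-origin libraries (median 0.636 TPM) and from 0 to 0.188 TPM in BALB/c-origin libraries (median 0). Klra1, which encodes Ly49A, a receptor for H-2D molecules, ranged from 0 to 3.95 TPM (median 0.465) in C57BL/6-origin libraries, and from 0 to 0.311 TPM (median 0.127) in BALB/c-origin libraries. Klra1 was listed at 0 in 6 and Klra9 in 9 of the 15 BALB/c-origin libraries. For these 3 members the groups overlapped at the low end, through B16F1 and B16F10, and the line means of Klra1 in these lines (0.153 and 0.125 TPM) were below that of CT26 (0.193 TPM). As for Klra4, an absent gene, a differing allele and a lack of transcript cannot be told apart in BALB/c-origin libraries.

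Klra7, Klra3 and Klra5 were read in lines of both origins. Klra7, which encodes Ly49G, had a lowest, median and highest level of 0, 2.24 and 26.3 TPM in C57BL/6-origin libraries, and of 0, 1.62 and 4.11 TPM in BALB/c-origin libraries. Its line means were highest in MC38OVA and MC38, at 15.4 ± 9.55 and 9.0 ± 2.74 TPM (SD, n = 3), then in CT26 at 3.25 TPM, and it was listed at 0 in all 3 Renca libraries. Klra3, which encodes Ly49C, had 0, 0.616 and 8.89 TPM in C57BL/6-origin libraries, and 0.130, 2.75 and 7.74 TPM in BALB/c-origin libraries. CT26NYESO1 and CT26 had its highest line means, 6.20 ± 2.19 and 5.74 ± 2.04 TPM, followed by MC38OVA at 5.58 ± 3.07 TPM, and the library ranges of these neighbours overlapped. Klra5, which encodes Ly49E, was highest in MC38 at 1.48 ± 0.219 TPM, with MC38OVA, CT26 and CT26NYESO1 at 1.09 ± 0.497, 1.02 ± 0.212 and 0.955 ± 0.274 TPM. It was listed at 0 in every library of B16F1 and of Renca.

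The order of the lines was similar for the 5 members read mainly in C57BL/6-origin lines. MC38OVA and MC38 took the first 2 places and LL2 the third for Klra4, Klra8, Klra6, Klra1 and Klra9. The library ranges of MC38OVA and MC38 overlapped for each of these 5. LL2 lay apart from both for Klra4, Klra8, Klra6 and Klra9, while for Klra1 it overlapped MC38. LL2 was also apart from the line below it for all 5, and the lines further down overlapped their neighbours.

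Ncr1, which encodes the NK receptor NKp46 and lies on chromosome 7, was used as a measure of NK transcripts. Its mean over libraries was 7.70 ± 11 TPM in C57BL/6-origin lines and 7.65 ± 6.43 TPM in BALB/c-origin lines (SD, n = 15 each). Line means ran from 22.5 TPM in MC38OVA and 12.6 TPM in MC38 to 2.53 TPM in LL2, 0.466 TPM in B16F1 and 0.388 TPM in B16F10. In BALB/c-origin lines they were 14.5 TPM in CT26, 13.6 TPM in CT26NYESO1, 7.26 TPM in CMS5a, 2.17 TPM in EMT6 and 0.680 TPM in Renca. Lines of either origin thus held both ends of the NK range, and B16F1, B16F10 and Renca had the least.

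Each member was then expressed per unit of Ncr1, as the ratio of its line mean TPM to that of Ncr1, a measure chosen after seeing the data. Klra8 stood at 0.426 to 1.20 per Ncr1 in the 5 C57BL/6-origin lines (median 0.567), and at 0 to 0.00166 in the 5 BALB/c-origin lines. Klra4 stood at 0.348 to 2.86 (median 1.48) in C57BL/6-origin lines and at 0 to 0.00475 in BALB/c-origin lines. Both members were thus apart from the BALB/c-origin lines even in B16F10, where Ncr1 itself was below 1 TPM.

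Klra7 also separated by this measure, although it was read in both groups. It lay between 0.617 and 1.10 per Ncr1 in C57BL/6-origin lines. In BALB/c-origin lines it was 0.206 in EMT6, 0.223 in CT26, 0.225 in CT26NYESO1 and 0.232 in CMS5a, 4 values close to each other with this denominator, and 0 in Renca. Klra9 lay between 0.174 and 0.448 in C57BL/6-origin lines, and at most at 0.00864 in BALB/c-origin lines. Klra1 was nearly touching, at 0.0990 to 0.329 in C57BL/6-origin lines and 0 to 0.0874 in BALB/c-origin lines. Mapping to the C57BL/6J genome limits the ratios of BALB/c-origin lines as it does the levels.

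For Klra8, Klra4, Klra7, Klra9 and Klra1 the 2 groups of lines did not overlap and the difference in mean ratio had a two-sided exact permutation p of 0.0079, the smallest that 252 splits of the 10 lines allow. These are 5 of 10 members, against 0.451% of all 17944 tested genes for a ratio higher in every C57BL/6-origin line; it was lower in every such line for 0 of 10 members and 0.524% of tested genes. Of the 5, Klra8, Klra4, Klra9 and Klra1 reached 1 TPM in C57BL/6-origin libraries only and so entered the tested genes through the group in which they are high. Members and measure were both chosen with results of these data known, so the count and the p-values, which are not adjusted over the members, describe these lines and are not independent support. The permutation also treats the 10 lines as independent, although they form 7 families of related lines, and it was not repeated on families. Klra6 had ratios of 0 to 0.211 in C57BL/6-origin lines and at most 0.000351 in BALB/c-origin lines (exact permutation p = 0.048, and 0.17 without replicate 2). It overlapped because B16F10 was listed at 0.

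Klra3 ran the other way in its medians, at 0.259 per Ncr1 in C57BL/6-origin lines and 0.447 in BALB/c-origin lines, and the groups overlapped (exact permutation p = 0.36). Klra5 had median ratios of 0.0378 in C57BL/6-origin lines and 0.0701 in BALB/c-origin lines (exact permutation p = 0.99). For the members of myeloid cells, Klra2 and Klra17, the groups also overlapped (exact permutation p = 0.48 and 0.97). With the summed TPM of 10 NK genes outside the NK gene complex as the denominator, no member changed its side of 0.05. Klra7 was then less even in BALB/c-origin lines, at 0.00859 in EMT6, 0.0157 in CT26, 0.0187 in CT26NYESO1 and 0.0282 in CMS5a. The last came near LL2, the lowest C57BL/6-origin line, at 0.0337.

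**Figure D2:**
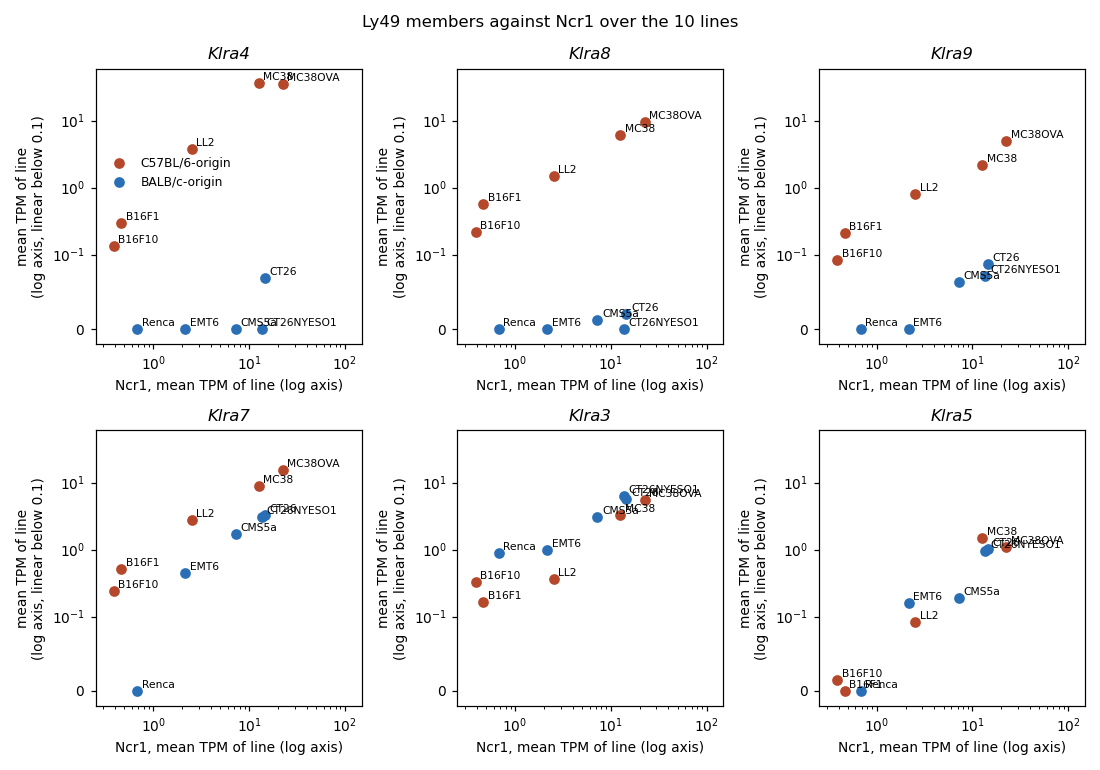
Line mean TPM of 6 Ly49 members against line mean TPM of Ncr1 (log axes, the vertical one linear below 0.1), 1 point per tumour line, coloured by origin. Klra4, Klra8 and Klra9 of BALB/c-origin lines lie at or below 0.0876 TPM. Of these lines, those with Klra9 above 0 are CT26, CT26NYESO1 and CMS5a, which have the most Ncr1. Klra7 runs in 2 bands against Ncr1, and Klra3 and Klra5 mix the origins.

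Levels were also tested over all genes, with the 10 lines as units (limma on line means of log2(TPM + 1), where the pseudocount of 1 understates changes of low genes). Calls needed a log2 difference of at least 1 and an adjusted p, by Benjamini-Hochberg over all tested genes, under 0.05. No member was called, against 1.38% of the 17944 tested genes, of which 0.201% of all tested were higher and 1.18% lower in C57BL/6-origin lines. The log2 difference, C57BL/6-origin minus BALB/c-origin, was 2.61 ± 0.96 for Klra4 (SE; limma adjusted p = 0.31) and 1.65 ± 0.54 for Klra8 (limma adjusted p = 0.23). For Klra9 and Klra6 it was 0.99 ± 0.40 and 0.72 ± 0.32 (limma adjusted p = 0.37 and 0.41), and these 4 were the members with an unadjusted p under 0.05, a mark that 11.6% of tested genes passed. For the other 6 members it lay between -0.74 (Klra3) and 0.77 (Klra7). The median difference over the 10 members was 0.66, against -0.12 over all tested genes. All 10 members passed the filter of 1 TPM in at least 3 libraries, but Klra1, Klra4, Klra6, Klra8 and Klra9 reached 1 TPM in C57BL/6-origin libraries only, as did 5.31% of tested genes, and so passed only through the group in which they are high. Line means were higher in every C57BL/6-origin line than in every BALB/c-origin line for 2 of 10 members, Klra4 and Klra8, against 0.97% of tested genes, and lower in every one for 0 of 10, against 3.09%.

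The call depended on the B16 lines, on the NK genes and, relative to NK genes, on the pseudocount. Without B16F1 and B16F10, whose leukocyte transcripts were lowest, Klra4, Klra8 and Klra6 were called, with log2 differences of 4.18, 2.46 and 1.18 (limma adjusted p = 0.016, 0.024 and 0.044), against 1.6% of tested genes. This setting left out the C57BL/6-origin lines in which these members were lowest. With the score of the 10 NK genes as a covariate, Klra4, Klra8 and Klra9 were called at 2.78, 1.74 and 1.06 (limma adjusted p = 0.016, 0.013 and 0.044), against 1.91% of tested genes. Klra4, Klra6, Klra8 and Klra9 passed the filter only through the group in which they are high, so their calls are not independent support. In a fit of 30 libraries that counts only the spread within lines, Klra4 and Klra8 were called, against 10.7% of tested genes. Without MC38 and MC38OVA, an alternative added after seeing the data, the differences were 0.91 for Klra4 and 0.72 for Klra8 (limma adjusted p = 0.41 and 0.25). With the NK score subtracted from every gene, no member was called, against 0.362% of tested genes (0.0223% higher and 0.34% lower in C57BL/6-origin lines). By that measure the difference was 2.74 ± 0.77 for Klra4 (SE; limma adjusted p = 0.16) and 1.78 ± 0.75 for Klra8 (limma adjusted p = 0.98), and both had an unadjusted p under 0.05, as did 3.58% of tested genes. Before subtraction they were 2.61 ± 0.96 and 1.65 ± 0.54, so neither difference became smaller. The SE rose for Klra8 and fell for Klra4. Without B16F1 and B16F10 that measure called Klra4 at 3.35 (limma adjusted p = 0.01), against 1.16% of tested genes. With a pseudocount of 0.1 it called Klra4 at 5.24 (limma adjusted p = 0.024), against 0.318% of tested genes. Not set against NK genes, a pseudocount of 0.1 gave 4.89 for Klra4 and 3.98 for Klra8, neither called (limma adjusted p = 0.15 and 0.062).

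Klra4 and Klra8 made up a large part of the Ly49 signal outside Klra2 and Klra17 in C57BL/6-origin lines. Over the 8 members other than Klra2 and Klra17, Klra4 and Klra8 together took 69.3% of the summed TPM in MC38, 58.5% in MC38OVA, 50.9% in LL2, 44.2% in B16F1 and 30.9% in B16F10. In BALB/c-origin lines they took 0.863% in CT26, 0.238% in CMS5a, and 0 in EMT6, CT26NYESO1 and Renca. There Klra3 was the largest component, at 61.5% in EMT6, 55.3% in CT26, 59.1% in CT26NYESO1, 59.6% in CMS5a and 93.8% in Renca. The sums themselves were 60.7 TPM in MC38, 75.8 in MC38OVA and 10.3 in LL2, against 10.4 in CT26, 10.5 in CT26NYESO1 and 5.07 in CMS5a. B16F1, B16F10, EMT6 and Renca each had sums under 2 TPM, so their shares rest on low levels. Reads were mapped to the C57BL/6J genome, so any Ly49 gene absent from it, activating or inhibitory, has no share of its own in BALB/c-origin lines. Whether reads of such a gene were assigned to a similar member, such as Klra3, was not tested.

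**Figure D3:**
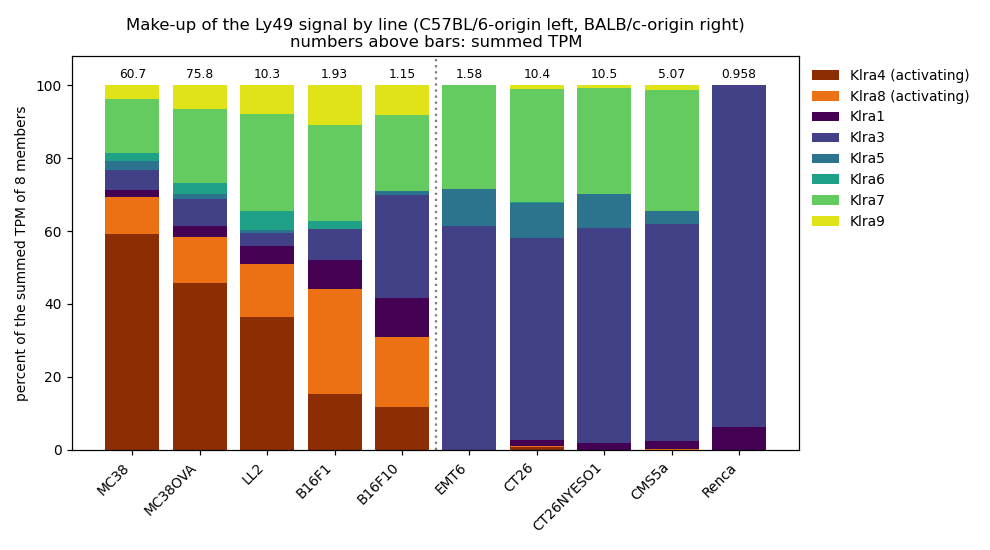
Share of each of the 8 members other than Klra2 and Klra17 in their summed TPM, 1 bar per line from line means, with the sum printed above. C57BL/6-origin lines are on the left. The activating members Klra4 and Klra8 take 30.9% to 69.3% on the left and at most 0.863% on the right. Ly49 genes absent from the C57BL/6J genome have no share of their own.

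Klra4 was the least variable member within the MC38 family. Over the 6 MC38OVA and MC38 libraries its coefficient of variation was 9.72%, with a highest-to-lowest ratio of 1.30. The other 9 members had coefficients between 31.4% (Klra5) and 71.5% (Klra9), and Ncr1 had 67.7%. MC38OVA replicate 2 carried the most Ncr1, at 41.4 TPM against 9.38 to 15.1 TPM in the other 5. Every other member except Klra5 also had its highest value of the 6 there, while Klra4 at 38.4 TPM lay within the range of the others. The ratio of Klra4 to Ncr1 accordingly ran from 0.928 to 3.71 over these 6 libraries, while that of Klra7 ran from 0.634 to 0.780 and that of Klra8 from 0.370 to 0.518. Over them Klra4 had r = 0.327 with Ncr1 (Pearson, log2), against 0.411 for Klra5 and 0.988 for both Klra7 and Klra8. Over all 15 C57BL/6-origin libraries r was 0.958 for Klra4. Among 21 NK genes and other killer receptors averaging 1 TPM or more in these libraries, coefficients ran from 9.92% to 86.1%. The lowest of them was that of Il18rap, an interleukin 18 receptor subunit named after its value was seen.

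**Figure D4:**
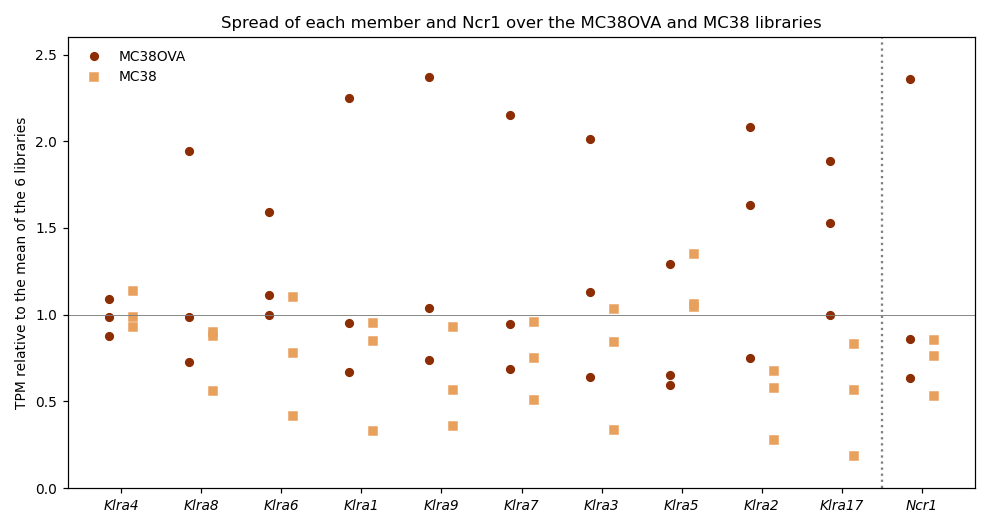
TPM of each Ly49 member and of Ncr1 in the 3 MC38OVA and 3 MC38 libraries, divided by the gene's mean over the 6. Klra4 stays close to 1 in all 6 libraries, with a coefficient of variation of 9.72%, while MC38OVA replicate 2 stands out in Klra8, Klra1, Klra9, Klra7 and Ncr1.

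Klra2 and Klra17 differ in biology from the rest, since Ly49B (Klra2) is an inhibitory receptor of myeloid cells, and Ly49Q (Klra17) one of plasmacytoid dendritic cells and other myeloid cells. Klra2 was the most abundant member in every line except MC38, where Klra4 was higher. It had 33.3, 92.7 and 72.7 TPM in MC38OVA, 25.8, 12.4 and 30.1 TPM in MC38 and 21.4, 38.9 and 28.2 TPM in LL2, against 12.9, 31.0 and 27.2 TPM in EMT6. CT26, CT26NYESO1 and CMS5a libraries lay between 13.7 and 19.0 TPM. The lowest libraries were those of Renca at 1.25, 1.89 and 2.31 TPM, B16F1 at 3.27, 4.46 and 2.73 TPM and B16F10 at 0.572, 1.35 and 1.72 TPM. The 2 origins overlapped and Klra2 was not called (log2 difference 0.01 ± 0.92, SE; limma adjusted p = 1).

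Renca was low in Klra2 and in general leukocyte genes, while its macrophage genes were not the lowest of the BALB/c-origin lines. The mean log2(TPM + 1) of 10 macrophage and monocyte genes was 6.74 ± 0.196 in Renca (SD, n = 3), against 6.21 ± 0.221 in CT26 and 6.24 ± 0.315 in CT26NYESO1, where Klra2 averaged 18.1 and 16.9 TPM. Ptprc averaged 22.4 ± 11.4 TPM in Renca, the lowest of the BALB/c-origin lines, against 37.5 ± 4.16 TPM in CT26NYESO1 and 44.0 ± 14.7 TPM in CT26. The score of 6 leukocyte genes was also lowest there, at 5.39 in Renca, 5.58 in CT26NYESO1 and 5.65 in CT26. Over the 30 libraries, Klra2 had r = 0.924 with Ptprc, 0.879 with the leukocyte score and 0.744 with the macrophage score (Pearson, log2, as a description). With the score of the 10 NK genes and with Ncr1 it had 0.851 and 0.785, so these values do not single out macrophages. The part of leukocyte content in the low Klra2 of Renca was not tested. In B16F1 and B16F10 the macrophage score was lower as well, at 5.24 and 4.09. Neutrophil genes scored 2.94 in Renca and 2.83 in CT26NYESO1.

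Klra17 was highest in MC38OVA at 3.45 ± 1.05 TPM (SD, n = 3), followed by CMS5a at 2.41 ± 0.355 TPM and EMT6 at 1.92 ± 0.528 TPM. Its lowest line mean, 0.139 TPM, was that of B16F10. CMS5a and MC38OVA had the highest scores of 9 plasmacytoid dendritic cell genes, 2.84 and 2.75, but CT26 and CT26NYESO1 scored nearly as high, 2.68 and 2.48, with Klra17 at only 0.708 and 0.824 TPM. EMT6 scored lower, at 1.88, but had the highest neutrophil score, 5.42. The part of each cell type in these levels was not tested.

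**Figure D5:**
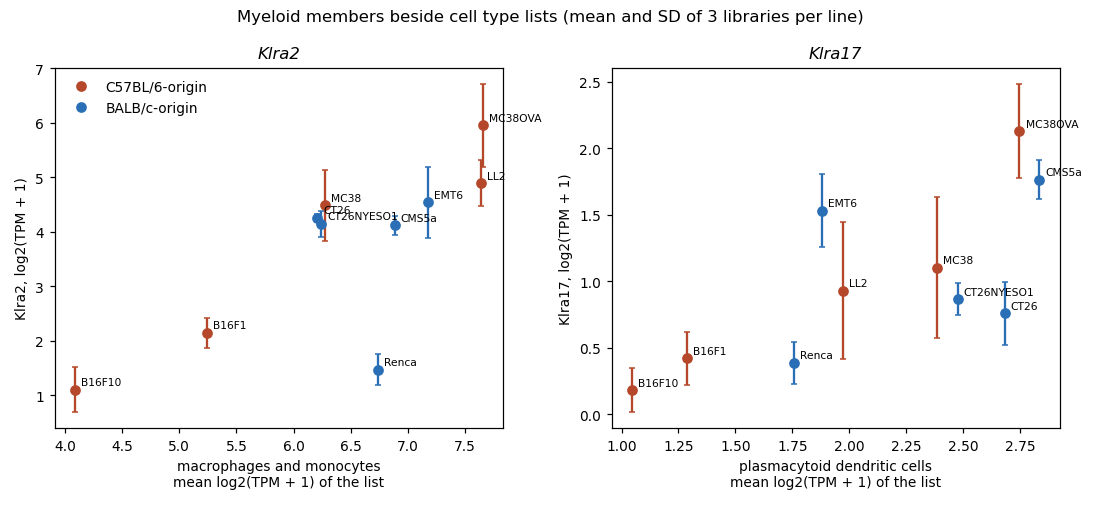
Left, Klra2 against the mean level of 10 macrophage and monocyte genes; right, Klra17 against that of 9 plasmacytoid dendritic cell genes, both axes as log2(TPM + 1), 1 point per line with the SD of 3 libraries for the member. Renca lies below the other lines of similar macrophage score in Klra2, EMT6 is high in Klra17 for its plasmacytoid score, and CT26 and CT26NYESO1 are low for theirs.

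Differences between lines within an origin were tested in a limma fit of all 30 libraries with a mean per line. Over the 10 lines, all 10 members differed (adjusted p under 0.05 and line means at least 1 apart on the log2 scale), as did 85.5% of tested genes. Among the C57BL/6-origin lines alone all 10 differed, against 61.8% of tested genes, with ranges of line means from 1.31 for Klra5 to 5.02 for Klra4. Among the BALB/c-origin lines 5 differed, against 54.3% of tested genes: Klra2, Klra3, Klra5, Klra7 and Klra17. Their ranges of line means were between 1.01 for Klra5 and 3.06 for Klra2 (limma adjusted p = 4.3e-07 and 3.1e-08). Klra5 was just past the size threshold, and was no longer called with median-ratio scaling (0.95) or without replicate 1 (0.98). The other 5 were those at or near 0 in all BALB/c-origin lines.

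Symbols of the cluster outside the 10 members gave both patterns. The pseudogene Klra14-ps had 0.340 to 4.04 TPM in MC38, MC38OVA and LL2 libraries and was listed at 0 in all 15 BALB/c-origin libraries, as was 0.379% of tested genes. It had 0.0365 to 0.395 TPM in B16F1 and was listed at 0 in all 3 B16F10 libraries, so the origins overlapped. It reached 1 TPM in C57BL/6-origin libraries only, and so passed the filter through the group in which it is high. Klra8 holds 15.9% of the 75-base stretches of Klra14-ps. The pseudogene Klra13-ps, which shares 6.08% of its stretches with Klra7, averaged 5.20, 10.3 and 1.89 TPM in MC38, MC38OVA and LL2, against 1.43 TPM in CT26 and 0.916 TPM in CMS5a. It was listed at 0 in every library of B16F10 and of Renca. Klra10 stayed at or below 0.877 TPM in every library, and Klra11-ps at or below 0.248 TPM.

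None of the other killer receptors was called between origins. Of 13 killer lectin-like receptor genes, 7 had a positive and 6 a negative difference, and none had an unadjusted p under 0.05 (limma on line means). The log2 difference of Klrk1, the gene for NKG2D, was 0.0032 ± 0.89 (SE), and that of Klrc1, the gene for the inhibitory NKG2A, was 0.04 ± 0.81. Klre1 averaged 9.95 TPM in MC38 and 15.1 TPM in MC38OVA, against 3.64 TPM in CT26 and 5.97 TPM in CT26NYESO1. Klrb1c, the gene for NK1.1, averaged 4.63 and 9.24 TPM in MC38 and MC38OVA, against 2.01 and 2.08 TPM in CT26 and CT26NYESO1. Klrc3 and Klri1 ran the other way between these lines. Klrc3 averaged 0.352 and 0.964 TPM in MC38 and MC38OVA, against 1.28 and 2.16 TPM in CT26 and CT26NYESO1. For Klri1 the means were 1.30 and 2.41 TPM, against 2.63 and 2.94 TPM. The 10 NK genes outside the complex had 5 positive and 5 negative differences, with a median difference of -0.04 and none with an unadjusted p under 0.05.

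Nor was any of the genes that carry the Ly49 signal. Of 12 genes, 3 had a positive and 9 a negative difference, with a median difference of -0.09, none called and none with an unadjusted p under 0.05. The log2 difference was -0.35 ± 0.59 for Tyrobp, the gene for DAP12 (SE; limma adjusted p = 0.86), and 0.31 ± 0.34 for Ptpn6, the gene for SHP-1 (limma adjusted p = 0.75). These genes are also used by other leukocytes.

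The genes most like each member were taken by Pearson r of log2(TPM + 1) over the 30 libraries, of which the 3 of a line share their tumour line. Klra8 was most like Trim5 (r = 0.981), Baiap3 (0.973), Ly6a2 (0.971), Khdc1a (0.968) and Ifi206 (0.964). Trim5, Ly6a2 and Ifi206 also appeared among the 5 genes most like Klra1, Klra6 and Klra9, and Trim5 and Ifi206 among those of Klra4. Trim5 reached 8.0 TPM in C57BL/6-origin libraries and at most 0.427 TPM in BALB/c-origin libraries. Klra4 was most like Lrfn3 (r = 0.974).

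Klra3 was most like Gzma (r = 0.950), a granzyme gene of killer cells, and Ncr1 (0.926), Klra7 was most like Klri2 (0.960) and Klre1 (0.954), and Klra5 was most like Ido2 (0.939), Eomes (0.934) and Prf1 (0.930). Klra2 was most like Lcp2 (0.936), Samhd1 (0.933) and Trpm2 (0.932), and Klra17 most like BC147527 (0.872) and Rubcnl (0.868). Within each origin, the relation of members to Ncr1 was closer than over all libraries for Klra7, with r = 0.990 over 15 C57BL/6-origin libraries and 0.977 over 15 BALB/c-origin libraries, against 0.874 over all 30. For Klra8, r was 0.993 within C57BL/6-origin libraries and 0.465 over all 30. Within BALB/c-origin libraries, r with Ncr1 was 0.673 for Klra1 and 0.648 for Klra9. It was 0.401 for Klra6, 0.357 for Klra4 and 0.271 for Klra8, and all of these members were below 1 TPM there.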

How the data were processed

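RNA-seq of 30 libraries (10 tumour lines, 3 replicates each) was given as 1 deposited table of TPM. Per the submitters' processing notes the authors used Trim Galore 0.6.5, STAR 2.7.3a, StringTie 2.1.2 and mm10; per the labels' protocols the kit marks strand, and annotation and counting settings are not given in the sources used here. Each column of deposited TPM sums to 1000000, so no counting interval can be given. Values were analysed as log2(TPM + 1), keeping 17944 of 55291 symbols with at least 1 TPM in 3 libraries. Line means of 5 C57BL/6-origin and 5 BALB/c-origin lines were compared with limma 3.58.1 (R 4.3.3, trend), also after subtracting the mean of 10 NK genes outside the NK gene complex; lines were compared by F tests over 30 libraries. The method was tested on simulated data. Ratios to Ncr1, chosen after seeing the data, had an exact permutation test. Alternatives were the pseudocount, filter, scaling, units, NK measure, replicate block, and leaving out replicates or lines. All members, the 3 most abundant genes of each cell type list, and the 5 genes most like each member by Pearson r could be named. Members and lists were chosen with earlier results of these data known.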

Additional observations from a re-analysis of the deposited data

Results flagged for a closer look

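In each origin, the line means of log2(TPM + 1) of the members and Ncr1 were searched for a line far from the other 4; chance flags about 1 in 20 groups, and 2 of 22 were flagged. Klra2 in Renca lay apart from the other BALB/c-origin lines, at 1.48 against 4.12 to 4.54, a gap of 0.864 of the whole range. Klra4 in CT26, at 0.0905, lay apart from the other 4 BALB/c-origin lines, all at 0, a gap of 1.0 of the range; it rests on a single library of 0.207 TPM.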

How the results depend on the processing

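The number of genes called between origins was 247, and 101 with related lines averaged into families. It was 1925 over 30 libraries, with or without a replicate block, and 171 to 299 when a line was left out. Relative to NK genes it was 65, and 118 with no filter, 209 without the B16 lines, 27 with Ncr1 alone subtracted, and 1898 over 30 libraries (1899 with the replicate block). It was 50 to 112 when a line was left out and 48 to 94 without a replicate. Of 65 recomputed counts of genes called in either direction or between lines, 55 stayed within 1.5 times; leaving out B16F1 (112) or B16F10 (98) moved the count relative to NK genes past that. Of 44 recomputed counts of genes higher in C57BL/6-origin lines, 19 stayed and 25 moved. That count was 36, but 21 with no filter, 55 with a pseudocount of 0.1, 12 with families, 119 without the B16 lines, 79 with the NK covariate, 702 over 30 libraries and 19 to 60 when a line was left out. Relative to NK genes it was 4, but 29 with no filter, 10 with a pseudocount of 0.1, 2 with families, 11 without the B16 lines, 26 without MC38 and MC38OVA, 904 over 30 libraries (905 with the replicate block), and from 1 without CT26 to 18 without MC38. The small shares of genes higher in C57BL/6-origin lines are therefore unstable. The cause was not tested. Same-numbered replicates did not deviate together (mean correlation 0.0043), and 10 of 30 libraries correlated best with their own number. Median-ratio scaling shifted the median origin difference by 0.138 (log2).

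Among member values, 631 kept direction and side of the threshold, 18 passed it, 3 no longer did and 38 reversed, none past the threshold. With a pseudocount of 0.1, Klra4 relative to NK genes was called (5.24, limma adjusted p = 0.024, against 2.74), Klra4 and Klra8 were 4.89 and 3.98 (against 2.61 and 1.65), Klra2 was -0.078 and Klra5 -0.16, and relative to NK genes Klra17 was -0.072. Relative to NK genes Klra17 was also -0.0051 with median-ratio scaling, -0.21 with families and -0.50 without the B16 lines, where Klra5 was -0.49; without the B16 lines Klra17 was 0.33 when not set against NK genes. Without MC38 and MC38OVA (added after seeing the data), Klra2 was -0.99, Klra5 -0.43 and Klra7 -0.31. When a line was left out, Klra2 ran from -0.55 to 0.66, Klra5 from -0.18 to 0.15 and Klra17 from -0.40 to 0.085; relative to NK genes they ran from -0.17 to 0.45, -0.13 to 0.44 and -0.25 to 0.28. Without a replicate, the range of Klra4 among BALB/c-origin lines was 0 to 0.14, and the Ncr1 ratio difference was -0.020 to 0.028 for Klra5 and -0.029 to 0.157 for Klra17. TPM give no depth, so what it limits is unknown.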
